A study of Homo sapiens with 4 samples.

Results

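The transcription factors that set and keep the melanocyte lineage were followed in 92.1, an established human cell line grown from a uveal melanoma, which arises from pigment cells of the eye. A total of 10 genes was listed by name: MITF and its MiT family relatives TFEB, TFE3 and TFEC, the SOXE factors SOX10 and SOX9, and PAX3, IRF4, TFAP2A and LEF1. Of these, 8 were among the 11650 genes with a value, and all 8 passed the filter that left 10271 genes for testing (mean level across the 4 libraries not under 1 FPKM). TFEB and TFEC had no value and were not analysed here. Levels are given in FPKM, a fragment count scaled by transcript length and by library size, so that levels of different genes can be compared.

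RNA sequencing covered 2 libraries of parental 92.1 cells and 2 of a resistant derivative of that line. The labels do not name the agent to which the cells are resistant, give no other allele or treatment, and do not say whether the resistant cells are 1 clone. All titles name 92.1, but the cell line field carries a different number for each sample, and the titles were followed. Separate cultures are not mentioned for libraries of the same group, so each p-value reflects the spread among 4 libraries that may differ only technically. Total RNA was made into stranded libraries, and the labels mention both poly(A) selection and ribosomal RNA removal.

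MITF is a basic helix-loop-helix leucine zipper factor that switches on the genes of melanin synthesis and is often called the master regulator of melanocytes. SOX10 and PAX3 drive MITF transcription in the neural crest lineage, LEF1 does so with beta-catenin downstream of WNT signals, and CREB does so downstream of cyclic AMP. TFAP2A and IRF4 act beside MITF at pigment genes. TFE3 shares the DNA motif of MITF and is best known for driving lysosome genes when nutrient signalling is low.

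The defining melanocyte markers all had a value, and all but DCT were above 20 FPKM in every library. PMEL, MLANA, TYR, TYRP1, DCT, GPR143 and SLC45A2 summed to 2540 and 2270 FPKM in parental replicates 1 and 2 and to 3000 and 2230 FPKM in resistant replicates 1 and 2. Most of each sum was TYRP1, at 1490 and 1480 against 2140 and 1510 FPKM. Resistant replicate 2 had the lowest median over genes (4.17 FPKM, against 4.70 to 4.85 in the others) and the most genes listed at 0 (80, against 25 to 59), and 66.1% of tested genes stood higher in resistant replicate 1 than in resistant replicate 2 (median difference 0.15 on the log2 scale), which became 49.9% (median 0.00) after median-of-ratios scaling. Of the lymphoid and plasma cell markers, 3 of 9 had a value, with sums of 15.8 to 18.7 FPKM in parental replicates 1 and 2 and resistant replicate 1 and of 22.5 FPKM in resistant replicate 2. Most of that sum was SDC1, which many other cells make too. PTPRC, MS4A1, PRDM1, CD3E and CD3D were among those with no value. Of the 6 epithelial markers 3 had a value, and they summed to 3.12 and 3.91 FPKM in parental libraries and to 9.39 and 17.7 FPKM in resistant ones, where KRT19 alone gave 1.1 and 6.29, and EPCAM and CDH1 had no value. Sums over the fibroblast markers with a value (3 of 7) were 5.2 and 6.01 FPKM in parental libraries and 9.59 and 7.34 FPKM in resistant ones. For retinal pigment epithelium markers (3 of 6) they were 5.29 and 4.69 against 4.48 and 3.08 FPKM. For Schwann cell markers (3 of 7), of which S100B is also made by pigment cells, they were 69.4 and 45.9 against 47.8 and 50.2 FPKM. Most of the Schwann cell sum was PMP22, at 64.2 and 39.3 against 40.2 and 47.5 FPKM. Only CD68 of 7 myeloid markers had a value, at 21.0 and 15.7 FPKM in parental libraries and 7.24 and 4.97 FPKM in resistant ones. The part of these cell types in the results was not tested.

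The parental cells held a graded set of lineage factors. SOX10 was the most abundant at 82.5 ± 13.1 FPKM, followed by TFAP2A at 55.9 ± 4.25, MITF at 36.4 ± 1.49 and PAX3 at 17.3 ± 0.886 (SD, n = 2 each). IRF4 at 5.06 ± 0.235, TFE3 at 4.07 ± 0.807, LEF1 at 1.25 ± 0.0662 and SOX9 at 1.1 ± 0.0697 FPKM formed a lower tier (SD, n = 2 each). The parental values of no pair of neighbours in this order overlapped, though IRF4 and TFE3 lay closer to each other than the 2 values of TFE3, and LEF1 and SOX9 closer than the values of either. In resistant cells the values of SOX10 (54.9 and 54.3 FPKM) lay inside the range of TFAP2A (53.0 and 55.9 FPKM). PAX3 lay inside the range of MITF, and LEF1 and IRF4 overlapped, so these 3 pairs could not be ordered.

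**Figure D1:**
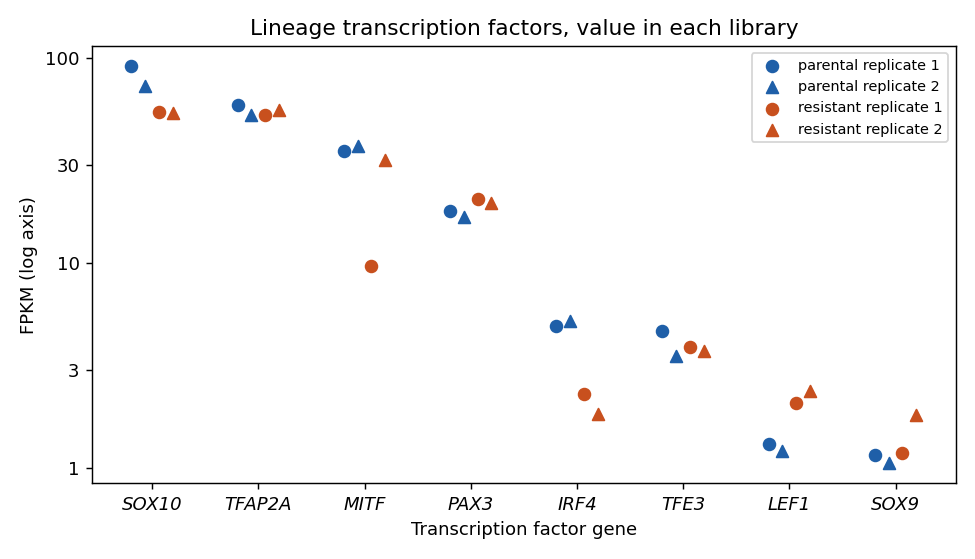
FPKM on a log axis of the 8 factors with a value, ordered by their parental mean, with 1 point for each library (parental in blue, resistant in orange, circles for replicate 1 and triangles for replicate 2). The single resistant point far from its partner belongs to MITF, at 9.64 FPKM in replicate 1 and 31.8 FPKM in replicate 2.

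No factor passed the threshold between resistant and parental cells. Under limma with Benjamini-Hochberg adjustment over all 10271 genes, 0 of 8 factors had an adjusted p under 0.05, as against 6 genes or 0.0584% of all tested genes (0.0487% higher and 0.00974% lower). At an unadjusted limma p under 0.05 there were 3 of the 8 (IRF4, SOX10 and LEF1), against 16.2% of all genes. The groups did not overlap for 6 of the 8: MITF, SOX10 and IRF4 were lower in both resistant libraries, and PAX3, SOX9 and LEF1 higher. Among all tested genes, the groups did not overlap for 51%, with 31.8% lower and 19.1% higher. The median log2 fold change was -0.05 over the 8 factors and -0.08 over all tested genes, which became 0.04 and 0.01 after median-of-ratios scaling. Fold changes are resistant minus parental on the log2(FPKM + 1) scale, which understates the change of genes near 1 FPKM, and with 2 libraries a group the smallest p of an exact permutation test is 0.333.

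**Figure D2:**
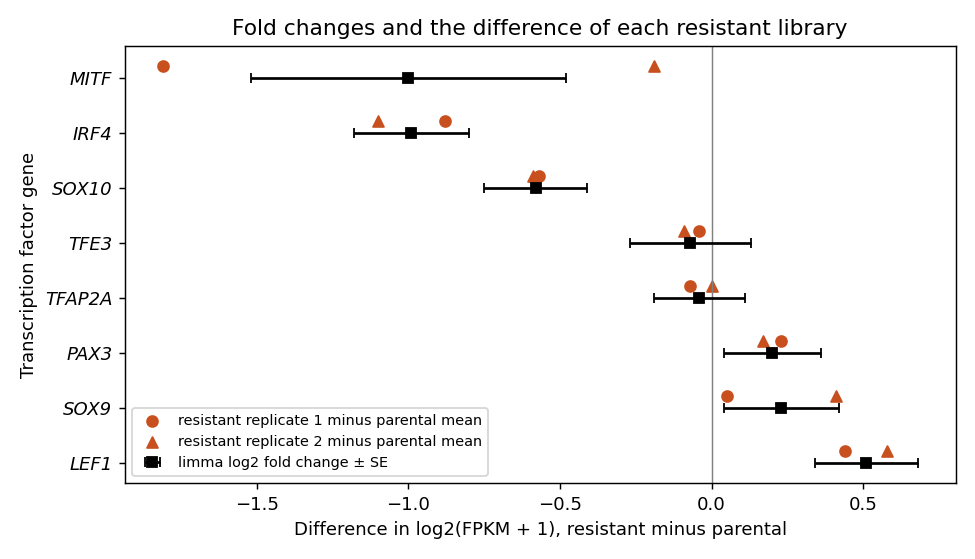
Difference in log2(FPKM + 1) between resistant and parental cells for each factor: black squares with bars give the limma log2 fold change ± SE, and orange symbols give each resistant library against the parental mean. The symbols of MITF lie far apart, at -1.81 and -0.19, while those of SOX10 nearly coincide on this deposited scale, at -0.57 and -0.59.

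MITF split the resistant libraries. Its level was 35.3 and 37.4 FPKM in parental replicates 1 and 2, and in resistant cells 9.64 FPKM (replicate 1) and 31.8 FPKM (replicate 2). Both resistant values were below both parental values, but replicate 2 lay close to the parental level and replicate 1 was 3.77-fold below the parental mean. In rank among the 11650 genes of a library, MITF went from 885 and 841 in parental cells to 3419 in resistant replicate 1 and 983 in resistant replicate 2. The log2 fold change was -1.0 ± 0.52 SE (limma adjusted p = 0.403), the widest error of the 8 factors. Without resistant replicate 1 it was -0.19 (limma adjusted p = 0.299), and without resistant replicate 2 it was -1.81 (limma adjusted p = 0.133). Whether there were fewer cells with MITF mRNA or less of it per cell cannot be told apart in bulk RNA.

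The gap between the resistant libraries is given here as a description, since MITF was singled out for it. On the log2(FPKM + 1) scale, the difference of MITF (replicate 1 minus replicate 2) was -1.62, and 44 of 10271 tested genes (0.428%) were at least as far below 0 and 143 (1.39%) at least as far from 0 in either direction. A difference of at least 1 in either direction was seen for 5.72% of tested genes between the resistant libraries, with 2.64% lower and 3.08% higher in replicate 1, and for 3% between the parental libraries, where MITF differed by -0.08. Among the 1656 genes averaging 20 FPKM or more, 12 were as far below 0 as MITF, MITF included. No other factor reached a difference of 1 on the deposited scale: SOX9 stood at -0.36, LEF1 at -0.14, TFAP2A at -0.07, SOX10 at 0.02, TFE3 at 0.05, PAX3 at 0.06 and IRF4 at 0.21. With 1 library on each side, these differences have no test.

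**Figure D3:**
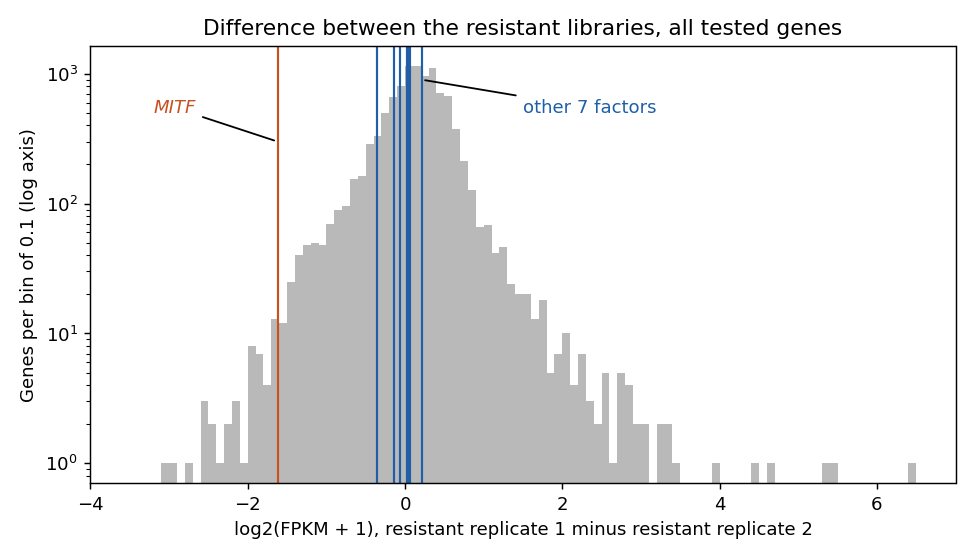
Histogram of the difference in log2(FPKM + 1) between resistant replicate 1 and resistant replicate 2 over 10271 tested genes, with the count of genes per bin on a log axis and a vertical line for each factor. MITF (orange) sits in the left tail at -1.62, and the other 7 factors (blue) lie between -0.36 and 0.21 on the deposited scale.

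The balance between MITF and the other factors differed accordingly. SOX10 was 2.60 and 1.96 times as abundant as MITF in the parental libraries, 5.69 times in resistant replicate 1 and 1.71 times in resistant replicate 2. PAX3 was at 0.509 and 0.447 times the level of MITF in parental cells, 2.12 times in resistant replicate 1 and 0.615 times in resistant replicate 2. MITF exceeded TFE3 by 7.60 and 10.7 times in parental cells, by 2.47 times in resistant replicate 1 and by 8.51 times in resistant replicate 2. In each of these ratios resistant replicate 1 stood apart. Each holds MITF, while SOX10, PAX3 and TFE3 differed by only 0.02, 0.06 and 0.05 (log2 scale, as deposited) between the resistant libraries. The split therefore restates the gap of MITF and is no separate result. The ratio of SOX10 to TFAP2A did not show this split, at 1.56 and 1.39 in parental cells, then 1.03 and 0.972 in resistant cells.

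MITF (ENSG00000187098.14_3) is protein-coding and lies on chromosome 3 from 69739435 to 69968337 on the forward strand (GENCODE release 29, GRCh38). Its 18 annotated transcripts have 15 distinct starts, and the deposited value is a single sum per gene, so promoter use could not be read. RefSeq promoter windows of GRCh38.p14 gave 3 starts for MITF. The last of the 3 along the gene is shown because it holds motifs of 2 of the inputs named above. Capitals mark CTTTGAT, a core motif of LEF1 and its TCF relatives, 204 to 198 bases before the start, and TGACGTCA, the palindromic CREB motif, 152 to 145 bases before it. The window is the 250 bases upstream of the start at chr3:69936342-69936591, forward strand.
MITF: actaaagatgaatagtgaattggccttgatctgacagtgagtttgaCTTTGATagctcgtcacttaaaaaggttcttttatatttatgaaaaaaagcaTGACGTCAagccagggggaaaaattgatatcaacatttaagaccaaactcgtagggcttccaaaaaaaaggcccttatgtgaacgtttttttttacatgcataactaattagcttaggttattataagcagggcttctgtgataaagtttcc

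Of the 10 listed factors, 8 had promoter windows in this table, 14 in all. TGACGTCA was in 1 of the 14 windows and in 1.65% of all 35093 windows of that length, and CTTTGAT, searched on both strands, was in 1 of 14 and in 2.26% of all. These 2 matches are both in the MITF window printed above. A match to a motif is a description of the sequence and does not show binding.

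The genes whose profile over the 4 libraries was most like that of MITF were taken by the smallest root mean square difference between mean-centred log2(FPKM + 1) values. In order they were BNIP3L (difference 0.0915), ST6GAL1 (0.0922), LEPROTL1 (0.131), POLR3F (0.141) and SOSTDC1 (0.148). BNIP3L, a mitophagy receptor, stood at 43.2 and 48.3 FPKM in parental cells and at 12.1 and 34.4 FPKM in resistant replicates 1 and 2. ST6GAL1, a sialyltransferase, went from 10.3 and 9.52 FPKM to 1.84 and 7.69 FPKM, and SOSTDC1, a secreted antagonist of BMP signals, from 12.2 and 10.7 to 2.52 and 12.1 FPKM. Like MITF, these genes have their lowest value in resistant replicate 1, and 4 libraries are too few for a correlation.

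Genes next to MITF were also compared between the resistant libraries. Within 1 Mb of the gene, 6 others were tested, with differences between resistant replicates 1 and 2 of -0.60 to 0.78 (median 0.14) and log2 fold changes of -0.84 to 0.56. None of the 6 was lower in replicate 1 by 1 or more on the log2 scale, against 2.64% of all tested genes, so a count of 0 is near that share. The abundant neighbour ARL6IP5 stood at 57 and 65.5 FPKM in parental libraries and at 59.9 and 56.7 FPKM in resistant ones. FOXP1, a forkhead factor on the other side, stood at 2.01 and 2.11 against 1.8 and 2.96 FPKM.

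SOX10 was lower in both resistant libraries, and by nearly the same amount in each on the deposited scale. After median-of-ratios scaling its difference between them (replicate 1 minus replicate 2) went from 0.02 to -0.17. SOX10 stood at 91.8 and 73.3 FPKM in parental and at 54.9 and 54.3 FPKM in resistant cells, so the groups did not overlap. The log2 fold change was -0.58 ± 0.17 SE (limma adjusted p = 0.228). The parental libraries differed by 0.32 on the log2 scale, more than the resistant libraries at 0.02, and the log2 fold change was -0.42 without parental replicate 1 and -0.74 without parental replicate 2. SOX10 (ENSG00000100146.16_2) lies on chromosome 22 from 37970686 to 37987422 on the reverse strand. It shares 89 exon bases with POLR2F, an RNA polymerase subunit gene on the opposite strand, whose level was 17.8 and 16.7 FPKM in parental libraries and 19.2 and 17.4 FPKM in resistant ones. No source used here says whether counting used strand, so reads in the shared bases could not be assigned. Of the 32 tested neighbours within 1 Mb, the median log2 fold change was -0.08 and 0 passed the threshold. The genes most like SOX10 over the 4 libraries were CSK (difference 0.0199), SPAG4 (0.0232), GNG7 (0.0263), CX3CL1 (0.0264) and CBX2 (0.0285).

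SOX9, the SOXE relative of SOX10 that marks other neural crest and cartilage fates, was near the floor of the table. It stood at 1.15 and 1.05 FPKM in parental cells and at 1.18 and 1.8 FPKM in resistant cells, a log2 fold change of 0.23 ± 0.19 SE (limma adjusted p = 0.574). Resistant replicate 1 lay just above the parental values, so the difference rests on replicate 2, and without replicate 2 the log2 fold change was 0.05. SOX9 (ENSG00000125398.5_2) lies on chromosome 17 from 72121020 to 72126420. SOX10 exceeded SOX9 by 79.6 and 69.5 times in parental cells and by 46.4 and 30.2 times in resistant cells.

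PAX3, the paired box factor that acts with SOX10 on MITF, was slightly higher in both resistant libraries. It stood at 18.0 and 16.7 FPKM in parental and at 20.5 and 19.6 FPKM in resistant cells. The groups did not overlap, but the log2 fold change was 0.20 ± 0.16 SE (limma adjusted p = 0.576). PAX3 (ENSG00000135903.18_2) lies on chromosome 2 from 222199888 to 222298996, and CCDC140, within its span on the opposite strand, stood at 0.269 to 0.737 FPKM.

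TFAP2A, the AP-2 alpha factor of neural crest and skin, and TFE3 had overlapping groups, and the sign of their differences turned with the scaling. TFAP2A stood at 58.9 and 52.9 FPKM in parental and at 53.0 and 55.9 FPKM in resistant cells, with a log2 fold change of -0.04 ± 0.15 SE (limma adjusted p = 0.924), which was 0.07 after median-of-ratios scaling. TFE3 stood at 4.64 and 3.5 FPKM in parental and at 3.9 and 3.73 FPKM in resistant cells, with a log2 fold change of -0.07 ± 0.20 SE (limma adjusted p = 0.889), which was 0.02 after that scaling. TFAP2A (ENSG00000137203.10_2) lies on chromosome 6 from 10393186 to 10419659. Its exons share 941 and 438 bases with 2 antisense genes that had no value here, so its level is uncertain to that extent. TFE3 (ENSG00000068323.16_2) lies on chromosome X from 49028726 to 49043486.

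IRF4, an interferon regulatory factor family member that acts in both lymphocytes and melanocytes, had the lowest unadjusted p of the 8. It stood at 4.9 and 5.23 FPKM in parental and at 2.28 and 1.83 FPKM in resistant cells. Both resistant libraries lay below both parental libraries, with a ratio of means of 2.46 (parental over resistant). The log2 fold change was -0.99 ± 0.19 SE (unadjusted p = 0.00258, limma adjusted p = 0.138), and the lowest adjusted p over the alternatives was 0.0586, without resistant replicate 1. IRF4 (ENSG00000137265.14_2) lies on chromosome 6 from 391739 to 411447. Its 3 tested neighbours within 1 Mb had log2 fold changes of -0.34 (DUSP22), -0.06 (EXOC2) and 0.29 (FOXF2).

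LEF1, the nuclear partner of beta-catenin, was low in all libraries and higher in the resistant ones. It stood at 1.3 and 1.21 FPKM in parental and at 2.06 and 2.36 FPKM in resistant cells, without overlap. The log2 fold change was 0.51 ± 0.17 SE (limma adjusted p = 0.257), and with a pseudocount of 0.1 it was 0.77 (limma adjusted p = 0.277). LEF1 (ENSG00000138795.9_2) lies on chromosome 4 from 108047545 to 108168956 and shares 279 exon bases with LEF1-AS1 on the opposite strand.

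Most pigment genes known as MITF targets were higher in the resistant library with less MITF, a count that moved with the scaling. Of 19 such genes on a list, 18 were tested. While MITF was lower in resistant replicate 1, 16 of the 18 were higher there than in resistant replicate 2, against 66.1% of all tested genes, with a median difference of 0.20 against 0.15 over all genes. After median-of-ratios scaling the count was 11 of 18 (against 49.9%, median 0.02), and after quantile normalization it was 14 of 18 (against 53.2%). On the deposited scale 0 of the 18 were lower in replicate 1 by 1 or more, near the 2.64% of all genes. TYR, which catalyses the first step of melanin synthesis, stood at 121 and 113 FPKM in parental cells and at 177 and 114 FPKM in resistant replicates 1 and 2. TYRP1, a second melanin enzyme, stood at 1490 and 1480 against 2140 and 1510 FPKM. RAB38, which sorts melanosome cargo, stood at 251 and 204 against 313 and 196 FPKM, and SLC24A5, a melanosome ion exchanger, at 34.2 and 33.6 against 47.8 and 29 FPKM. For 6 of the 18 genes, these 4 with MLPH and SLC7A5, the library with the least MITF had the highest value, and after median-of-ratios scaling this held for 5 of the 18. These shares (33.3% and 27.8%) are near those of all tested genes, of which 29.4% and 24% were highest in that library. GPNMB, a melanosome and lysosome glycoprotein, stood at 144 and 149 FPKM in parental cells, and at 144 and 67.6 FPKM in resistant replicates 1 and 2, the largest gap of the 18 at 1.08.

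**Figure D4:**
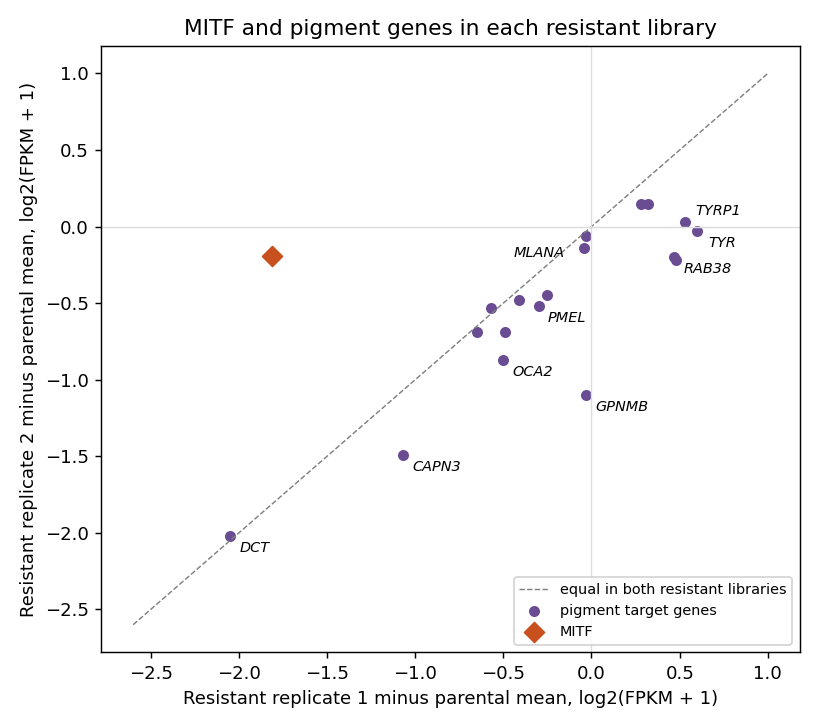
Each point is a gene, with the difference from the parental mean in resistant replicate 1 on the horizontal axis and in resistant replicate 2 on the vertical axis, both in log2(FPKM + 1). MITF (orange diamond, -1.81 and -0.19) lies far above the line of equal values. On the deposited scale 16 of the 18 pigment genes lie below the line, against 66.1% of all tested genes. After median-of-ratios scaling these are 11 of 18 and 49.9%.

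Between the groups, 0 of the 18 pigment genes passed limma, with 7 at an unadjusted limma p under 0.05 (against 16.2% of all genes). Without overlap, 8 were lower and 2 higher, against 31.8% and 19.1% of all genes. The median log2 fold change was -0.38 (-0.28 to -0.43 under the other scalings), against -0.08 over all genes (-0.14 to 0.01). DCT, the dopachrome tautomerase of melanin synthesis, stood at 4.88 and 5.46 FPKM in parental and at 0.486 and 0.517 FPKM in resistant cells. It is 1 of 2 pigment genes that lay under 1 FPKM in both resistant libraries and so passed the filter only through the parental ones. Both are among the 7 and among the 8 lower. Both resistant libraries were about equally low for DCT (-2.05 and -2.02 against the parental mean), unlike MITF. CAPN3, a calpain protease gene with a melanocyte isoform, stood at 10.9 and 10.3 against 4.54 and 3.13 FPKM, OCA2, a melanosome anion channel, at 29.2 and 27.3 against 19.7 and 15 FPKM, and MREG at 10.1 and 8.89 against 5.7 and 5.48 FPKM. PMEL, the fibril protein of melanosomes, stood at 620 and 380 against 395 and 338 FPKM, so its groups overlapped. MLANA was level at 221 and 211 against 212 and 207 FPKM.

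The motif TCATGTG, the M-box core bound by MITF, was in 6 of the 27 promoter windows of these pigment genes (22.2%) and in 2.52% of all 35093 windows. Because the genes were listed as known MITF targets, this share is a description and not a test. The 4 windows below are shown because all hold the motif, in capitals on either strand, while their genes differed in these libraries: TYR and TYRP1 were highest in resistant replicate 1, DCT was low in both resistant libraries, and GPNMB was low in resistant replicate 2. Each is the 250 bases upstream of a RefSeq start in GRCh38.p14, at chr11:89177625-89177874 (TYR, forward strand), chr9:12693135-12693384 (TYRP1, forward), chr13:94479683-94479932 (DCT, reverse) and chr7:23246525-23246774 (GPNMB, forward).
TYR: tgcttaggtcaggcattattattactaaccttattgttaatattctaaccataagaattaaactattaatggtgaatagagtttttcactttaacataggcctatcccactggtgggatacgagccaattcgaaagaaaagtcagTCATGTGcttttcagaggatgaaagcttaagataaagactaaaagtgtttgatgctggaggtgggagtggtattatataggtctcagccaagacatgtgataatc
TYRP1: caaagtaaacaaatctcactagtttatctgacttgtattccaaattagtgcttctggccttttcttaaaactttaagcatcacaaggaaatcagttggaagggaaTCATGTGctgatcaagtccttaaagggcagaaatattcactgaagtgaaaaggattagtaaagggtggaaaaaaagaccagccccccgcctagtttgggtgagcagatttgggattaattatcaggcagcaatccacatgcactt
DCT: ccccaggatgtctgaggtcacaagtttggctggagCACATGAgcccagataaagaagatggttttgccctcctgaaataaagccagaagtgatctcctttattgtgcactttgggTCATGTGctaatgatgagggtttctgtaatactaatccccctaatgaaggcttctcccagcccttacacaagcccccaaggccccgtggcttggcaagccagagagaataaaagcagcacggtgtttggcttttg
GPNMB: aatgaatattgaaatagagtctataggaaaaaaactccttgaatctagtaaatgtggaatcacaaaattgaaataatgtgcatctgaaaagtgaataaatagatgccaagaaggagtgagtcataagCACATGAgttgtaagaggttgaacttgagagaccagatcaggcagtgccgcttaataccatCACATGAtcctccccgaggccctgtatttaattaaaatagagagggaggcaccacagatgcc

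Cell cycle and survival genes known as MITF targets made up another list. Of 14 listed, 12 were tested and 0 passed limma, with 3 at an unadjusted limma p under 0.05 (against 16.2% of all genes). The median log2 fold change was -0.14, against -0.08 over all genes. CDKN1A, the cell cycle inhibitor p21, stood at 12.5 and 11 FPKM in parental and at 34.8 and 34.6 FPKM in resistant cells (1.49 ± 0.16 SE, limma adjusted p = 0.0781). CDK2, a kinase of S phase entry, stood at 122 and 118 against 77.4 and 66.2 FPKM, and APEX1, a DNA repair enzyme, at 34.5 and 39.3 against 28.9 and 26 FPKM. TBX2, a T-box repressor, stood at 12.7 and 6.02 against 16.1 and 19.4 FPKM, and CCND1, cyclin D1, at 84.3 and 80.6 against 86.8 and 90.5 FPKM. None of the 12 was lower in resistant replicate 1 than in replicate 2 by 1 or more on the log2 scale, and 2 were higher by that much, against 2.64% and 3.08% of all tested genes. A count of 0 of 12 is near the first share.

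Inputs and repressors of MITF were mixed. Of 17 listed, 15 were tested, and KIT had no value. With limma 0 passed, and 3 had an unadjusted p under 0.05, against 16.2% of all genes. Without overlap, 2 were higher and 5 lower, against 19.1% and 31.8% of all genes. These counts are near the shares of all genes. EDNRB, the endothelin receptor of melanoblasts, stood at 27.9 and 24.6 FPKM in parental and at 50.8 and 46.9 FPKM in resistant cells (log2 fold change 0.87 ± 0.16 SE, limma adjusted p = 0.137). FOXD3, a forkhead repressor of MITF in neural crest, stood at 1.24 and 1.66 against 2.46 and 2.82 FPKM. BHLHE40, a basic helix-loop-helix repressor, stood at 12.1 and 12.2 against 9.23 and 6.47 FPKM, and the stress factor ATF4 at 120 and 107 against 102 and 77.5 FPKM. The nuclear receptor NR4A3 stood at 17.7 and 32 against 16.9 and 6.39 FPKM, and CTNNB1, beta-catenin, at 52.3 and 42.4 against 61 and 34.9 FPKM, with overlapping groups. A difference of 1 or more between the resistant libraries was seen for 1 of the 15, against 5.72% of all tested genes. This was NR4A3, which was higher in replicate 1 (1.27).

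Genes of the MITF-low melanoma state were sparse. Of 12 listed, AXL, EGFR, NGFR and TNC had no value and 6 were tested, 0 of which passed limma (4 at an unadjusted p under 0.05). CCN1, a matricellular protein, stood at 5.68 and 5.52 FPKM in parental cells and at 44.6 and 30.5 FPKM in resistant replicates 1 and 2 (2.52 ± 0.23 SE, limma adjusted p = 0.0617). The AP-1 subunit FOSL1 stood at 0.71 and 0.624 against 1.35 and 1.57 FPKM. It is 1 of 3 genes of the list, 2 of them among the 4, that lay below 1 FPKM in both parental libraries and so passed the filter only through the resistant ones. VIM, the intermediate filament vimentin, went the other way at 295 and 287 against 189 and 215 FPKM.

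Among genes tied to SOX10 and its relatives, values diverged. Of 16 listed, 13 were tested and 0 passed limma, with 7 at an unadjusted limma p under 0.05 (against 16.2% of all genes). Without overlap, 5 were higher and 4 lower, against 19.1% and 31.8% of all genes. S100B stood at 2.26 and 2.76 against 0.773 and 0.963 FPKM. It passed the filter only through the parental libraries and is among the 7 and among the 4. The median log2 fold change was 0.07 (-0.01 after rescaling to a common sum). SOX6, a SOXD factor, stood at 1.41 and 1.07 FPKM in parental and at 6.52 and 8.91 FPKM in resistant cells (1.95 ± 0.22 SE, limma adjusted p = 0.0781). CDH19, a cadherin of the Schwann cell lineage, stood at 4.92 and 4.7 against 17.8 and 15.8 FPKM (1.61 ± 0.18 SE, limma adjusted p = 0.0781), and ERBB3, a neuregulin receptor, at 3.13 and 3.57 against 8.81 and 13 FPKM. SOX8, the remaining SOXE factor, stood at 5.21 and 4.9 against 1.5 and 1.82 FPKM (-1.19 ± 0.18 SE, limma adjusted p = 0.103). The neural crest filament NES stood at 24.4 and 22.4 against 43.4 and 49.1 FPKM, and the secreted protein MIA at 21.7 and 23 against 21.1 and 24.3 FPKM.

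Lysosome genes that MITF, TFEB and TFE3 can drive formed a list of 21. All were tested, 0 passed limma, and 3 (against 16.2% of all genes) had an unadjusted p under 0.05. A total of 14 lay above 0 (66.7%, against 41.4% of all genes), which became 15 (71.4%, against 50.8%) after median-of-ratios scaling, and the median log2 fold change was 0.12 (0.08 to 0.22 under the other scalings). CLCN7, a lysosomal chloride exchanger, stood at 10.6 and 4.84 FPKM in parental and at 13.4 and 13.6 FPKM in resistant cells, and NEU1, a sialidase, at 17.5 and 16.7 against 12.7 and 7.09 FPKM. The protease CTSD stood at 52.6 and 26.6 against 63.3 and 60.9 FPKM, the autophagosome protein MAP1LC3B at 14.7 and 14 against 20.9 and 26.5 FPKM, and PSAP, the precursor of saposins, at 179 and 172 against 183 and 123 FPKM. The CACGTG motif, the core of the element bound by TFEB and TFE3, was in 7 of the 15 promoter windows of these genes (46.7%). It was in 0 of the 14 windows of the factors and in 6.34% of all windows. The genes were listed as known targets, so this share is a description and not a test.

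Nutrient signalling genes that control where TFE3 and its relatives reside in the cell made up the next list. All 18 listed were tested and 0 passed limma, with 1 at an unadjusted limma p under 0.05 (against 16.2% of all genes). The median log2 fold change was 0.07, against -0.08 over all genes. RRAGD, a Rag GTPase and itself an MiT target, stood at 12 and 12.1 FPKM in parental and at 7.86 and 9.62 FPKM in resistant cells. FNIP2, a folliculin partner, stood at 7.89 and 7.71 against 9.52 and 10.3 FPKM, and the calcineurin subunit PPP3CA at 9.63 and 7.24 against 9.74 and 18.8 FPKM. YWHAZ, an adaptor gene, stood at 228 and 222 against 171 and 154 FPKM, and its relative YWHAG at 72.3 and 67.8 against 69.5 and 49.4 FPKM.

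Around LEF1, 10 of 17 genes of the TCF family and WNT targets were tested. With limma 0 passed, and 3 had an unadjusted p under 0.05, against 16.2% of all genes. The median log2 fold change was -0.03 (0.06 after median-of-ratios scaling), against -0.08 (0.01) over all genes. DKK1, a secreted WNT antagonist, stood at 0.375 and 0.447 FPKM in parental and at 1.74 and 1.92 FPKM in resistant cells. With both parental values under 1 FPKM, it passed the filter only because of the resistant libraries, and it is 1 of the 3. MYC stood at 8.23 and 7.85 against 3.06 and 4.67 FPKM. The Groucho corepressors TLE3 and TLE4 stood at 2.21 and 1.97 against 0.939 and 1.72 FPKM, and at 1.43 and 1.4 against 2.02 and 2.86 FPKM. NKD1, RNF43, SP5, NOTUM and LGR5 had no value.

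Close relatives of the AP-2, PAX and IRF factors were mostly missing from the table. Of 17 listed, 6 had a value and 4 were tested. With limma 0 passed, and 0 had an unadjusted p under 0.05, against 16.2% of all genes. No PAX gene other than PAX3 on the list had a value. IRF2 stood at 7.31 and 8.31 FPKM in parental and at 6.5 and 4.71 FPKM in resistant cells, and IRF3 at 5.51 and 4.94 against 4.6 and 5.81 FPKM. TFAP2C, the only other AP-2 gene with a value, stood at 4.08 and 3.14 against 3.32 and 2.26 FPKM.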

How the data were processed

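Per the file headers, the authors deposited FPKM values, 1 per gene and library, for 4 libraries. Per the submitters' processing notes the build was hg38, while 11551 of 11650 gene identifiers carry a suffix that GENCODE uses for annotation mapped to the older build. For the aligner, FPKM program and annotation release, nothing is given in the sources used here. Positions are those of GENCODE release 29. Depth is unknown: in low single-transcript genes the fullest 1% window held 3 to 5 genes in a library, too few to mark 1 fragment. In no gene was the higher of the 2 group means under 0.5009 FPKM.

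Values were taken as log2(FPKM + 1), and genes averaging 1 FPKM or more were tested in limma 3.58.1 (R 4.3.3, variance trend, two-sided, Benjamini-Hochberg at 0.05). The procedure was also run on simulated data with independent noise for each gene and library, which cannot cover shifts of a whole library. Python 3.11.15 was used for the rest. The factors and lists were chosen with earlier results of these data known. Named are the 10 factors, pigment genes (any tested), and from each other list up to 4 members of largest change without overlap and the 2 most abundant. The neighbour, motif and ratio descriptions, the lists under other scalings, and MLANA, KRT19 and TFAP2C as examples, were chosen after values were seen. A few listed genes are not reported here by name.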

Additional observations from a re-analysis of the deposited data

How the results depend on the processing

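No factor passed limma under any of the alternatives run, and the direction of MITF, SOX10, IRF4, PAX3, SOX9 and LEF1 held in all of theirs. TFAP2A (-0.04) changed sign with median-of-ratios scaling (0.07), quantile normalization (0.02), without parental replicate 1 (0.04) and without resistant replicate 1 (0.00; lowest -0.11, without parental replicate 2), and TFE3 (-0.07) with median-of-ratios scaling (0.02), quantile normalization (0.00) and without parental replicate 1 (0.10; lowest -0.23, without parental replicate 2), and the cause was not tested. IRF4, TFE3, SOX9 and LEF1 had no value at a minimum mean of 5 FPKM. The gap of MITF between the resistant libraries ranged from -1.81 (median-of-ratios scaling) to -1.62, and the differences of SOX10 (0.02) and PAX3 (0.06) became -0.17 and -0.12 with that scaling, and that of TFAP2A went from -0.07 to -0.26. SOX9 went from -0.36 to -0.56 with a pseudocount of 0.1, and LEF1 from -0.14 to -0.32 with quantile normalization. Over all genes, 5 were higher and 1 lower. The count of higher genes was 3 with a pseudocount of 0.1, 3 with median-of-ratios scaling, 3 with quantile normalization and 3 with library weights, and the count of lower genes was 3 after rescaling to a common sum. Leaving out 1 library gave 0 to 19 higher genes (0 without resistant replicate 1 or 2, with 1107 and 1031 at unadjusted limma p below 0.05) and 0 to 13 lower genes (0 without resistant replicate 2, with 1164 at that p). A replicate block (replicate number as a term) in limma gave 4 higher and 1 lower and no factor. Deviations of same-numbered libraries correlated at -0.071 across genes, so the numbers were not taken to pair the samples. The split of all tested genes was 4255 above and 6016 below 0, and 5214 and 5057 after median-of-ratios scaling. Depth is unknown, which limits what can be said of SOX9 and LEF1, near 1 FPKM.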
